A study of Homo sapiens with 6 samples.

Results

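Secretoglobins, mucins, the anterior gradient proteins and the trefoil factors are products of secretory epithelium, and 10 genes of these families were followed here in a breast cancer cell line: SCGB2A2, SCGB2A1, SCGB1D2, MUC1, MUC4, MUC16, MUC20, AGR2, AGR3 and TFF3. The genes were chosen by name as secretory mammary genes and selected on counts of these same libraries, in which SCGB2A2 had been seen to be nearly absent from 1 group. The comparison between the groups was therefore already known when the list was drawn up, and its values for these genes are given as a description, with no p-value. Of the 10 genes, 8 have a row in the table of counts, which holds 31122 genes, and 9 have a row in the table of FPKM values, which holds 34977. AGR3 has FPKM values and no counts. TFF3 has no row under that symbol in either of them, so it was not analysed here. Only 5 of the 10 (SCGB2A2, MUC1, MUC16, MUC20 and AGR2) reached the depth needed for the fit over 17420 genes; SCGB2A1, SCGB1D2 and MUC4 have counts and fell below it.

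MDA-MB-468 is an established basal-like, triple-negative breast cancer line with a high level of EGFR. The KO-labelled libraries, titled 11, 12 and OG, carry the genotype label KO, which the series description gives to 3 populations edited by CRISPR-Cas9 through 1 guide RNA to GPR52, an orphan receptor that raises cAMP. The other 3, titled W1, W2 and W3, carry the label WT, which stands there for wells of the parental line. The labels give no treatment for either group and do not say whether the populations are clones or pools, so editing, selection and time in culture cannot be told apart. GPR52 itself had 645, 694 and 724 counts in KO-labelled 11, 12 and OG, against 9, 1 and 0 counts in parental-labelled W1, W2 and W3. The transcript of the targeted gene was thus higher under the KO label, so both groups are called by their labels, and a direction given for either holds for the libraries so labelled. The counts do not show whether the reading frame of GPR52 was intact.

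Secretoglobins are small secreted proteins that form dimers. Mammaglobin-A, the product of SCGB2A2, is made by mammary epithelium and by many breast tumours, and it pairs with lipophilin B, the product of SCGB1D2; SCGB2A1 encodes the related mammaglobin-B. Mucins are large proteins with dense O-linked sugar chains: MUC1, MUC4 and MUC16 (the CA125 antigen) are tethered to the apical membrane, and MUC20 is a smaller membrane mucin. AGR2 and AGR3 are protein disulfide isomerases of the endoplasmic reticulum, AGR2 being needed for mucin production in mouse intestine, and TFF3 is a secreted trefoil peptide that is released together with mucins.

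Total counts ran between 25983764 and 27956600 in the KO-labelled libraries and between 25637794 and 31692454 in the parental-labelled libraries, so that 1 count was worth 0.0321 to 0.0397 CPM (counts scaled to the library's effective size). All 8 breast epithelial markers had counts in every library, with a summed level of 5957 to 6860 CPM in KO-labelled and 6339 to 6959 CPM in parental-labelled libraries. The lowest of them, KRT14, was at 15.2 to 30.3 CPM in KO-labelled and 5.74 to 6.19 CPM in parental-labelled libraries, and EGFR stood at 4556 to 8299 CPM in KO-labelled and 4857 to 5263 CPM in parental-labelled libraries. Of 5 leukocyte markers, 4 stayed under 1 CPM in every library, and their summed level of 2.53 to 4.07 CPM in KO-labelled and 27.3 to 37.1 CPM in parental-labelled libraries was nearly all CD14. Of the fibroblast markers, COL1A1 was at 23.3 to 27.6 CPM in KO-labelled and 6.43 to 8.19 CPM in parental-labelled libraries, while PDGFRB stayed under 1 CPM. The markers of airway secretory cells (2 with counts) and of intestinal goblet cells (3 with counts) were all under 1 CPM in every library. The part of CD14-bearing or COL1A1-bearing cells in the results was not tested. Errors written with ± are SDs between the 3 libraries of each group, and counting intervals and floors cover counting error only.

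SCGB2A2 was nearly absent from the KO-labelled libraries. It had 2, 1 and 0 counts in KO-labelled 11, 12 and OG, against 1180, 976 and 1278 counts in parental-labelled W1, W2 and W3. No KO-labelled library came near the parental-labelled libraries, which lay within 1.06-fold of each other in CPM. The means were 0.0369 ± 0.0377 CPM in KO-labelled and 39.6 ± 1.29 CPM in parental-labelled libraries (n = 3 each). The 3 counts against 3434 over the groups, scaled to library size, make SCGB2A2 1095-fold lower in the KO-labelled group, with an exact 95% interval of 374 to 5313. The fitted log2 fold change, -9.93 (SE 0.25), depends on a few reads, and was -10.81 without KO-labelled 11. By the authors' FPKM, which is scaled to transcript length, SCGB2A2 was at 0.0960, 0.0885 and 0 in KO-labelled 11, 12 and OG, against 93.4, 88.1 and 96.1 in parental-labelled W1, W2 and W3. By mean FPKM it ranked at place 23035 in the KO-labelled group and at place 1130 in the parental-labelled group, of 34977 genes. These are bulk libraries, in which fewer cells carrying a transcript and less transcript per cell cannot be told apart.

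The other secretoglobins of the cluster were scarce in both groups. SCGB1D2, the partner of mammaglobin-A, had 0 counts in each of KO-labelled 11, 12 and OG, against 8, 8 and 16 counts in parental-labelled W1, W2 and W3. Set against a floor of 3 counts over the KO-labelled group, SCGB1D2 was at least 10.2-fold lower there, while the exact 95% interval of the ratio of counts begins at 7.83. SCGB2A1 had 3, 5 and 2 counts in KO-labelled 11, 12 and OG, against 7, 4 and 6 in parental-labelled W1, W2 and W3, and the groups overlapped. Its ratio of parental-labelled over KO-labelled counts was 1.63, with a counting interval of 0.703 to 3.97 that includes no difference. A difference in SCGB2A1 within that interval was not detectable at this depth.

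The promoters of the secretoglobin cluster on chromosome 11 are shown because its genes belong to 1 family, of which SCGB2A2 alone was abundant in the parental-labelled libraries. Each window holds the 250 bases before the annotated start, on the plus strand of GRCh38.p14 (RefSeq). Capitals mark matches to 8 motifs searched on both strands: the TATA box TATAAA, the AT-rich box ATAAATA, the forkhead core TGTTTAC, the GATA core AGATAA, the GC box GGGCGGG, the cAMP response element TGACGTCA, the STAT palindrome TTCNNNGAA and the AP-1 motif TGANTCA. SCGB2A2 lies at chr11:62269908-62270157, SCGB2A1 at chr11:62208423-62208672 and SCGB1D2 at chr11:62241989-62242238.
SCGB2A2: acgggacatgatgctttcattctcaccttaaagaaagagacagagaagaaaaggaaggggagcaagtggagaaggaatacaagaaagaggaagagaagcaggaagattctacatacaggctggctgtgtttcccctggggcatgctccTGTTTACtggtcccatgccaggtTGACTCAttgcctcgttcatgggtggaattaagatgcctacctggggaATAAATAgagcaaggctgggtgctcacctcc
SCGB2A1: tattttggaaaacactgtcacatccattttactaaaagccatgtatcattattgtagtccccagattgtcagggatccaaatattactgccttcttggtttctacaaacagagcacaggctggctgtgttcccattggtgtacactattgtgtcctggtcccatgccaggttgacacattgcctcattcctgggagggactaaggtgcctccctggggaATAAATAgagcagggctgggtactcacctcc
SCGB1D2: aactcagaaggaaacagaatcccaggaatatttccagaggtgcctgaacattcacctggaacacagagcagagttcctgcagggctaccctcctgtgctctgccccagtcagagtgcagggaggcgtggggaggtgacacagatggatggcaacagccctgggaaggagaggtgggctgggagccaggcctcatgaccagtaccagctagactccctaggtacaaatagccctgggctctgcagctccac

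The SCGB2A2 and SCGB2A1 windows were alike at 63.5% of 260 aligned columns (165 identical bases). SCGB1D2 was at 51.1% with SCGB2A1 and at 44.0% with SCGB2A2. Windows of different families came as high, with 52.6% between SCGB1D2 and MUC16, so no likeness is read from the 51.1%. SCGB2A2 and SCGB2A1 both hold the AT-rich box ATAAATA at 31 to 25 bases before the start. That match was found in 4.6% of the 35116 RefSeq promoter windows of this length. SCGB2A2 also holds the forkhead core TGTTTAC at 102 to 96 bases before the start (in 2.98% of windows) and TGACTCA, a match to the AP-1 motif TGANTCA, at 79 to 73 bases before it (in 6.57% of windows). Neither of these 2 was matched in SCGB2A1, and the SCGB1D2 window matched none of the 8 motifs. The cAMP response element TGACGTCA, found in 1.65% of windows, was in none of the 8 windows of the listed genes. A match describes the letters only, and no binding was measured.

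**Figure D1:**
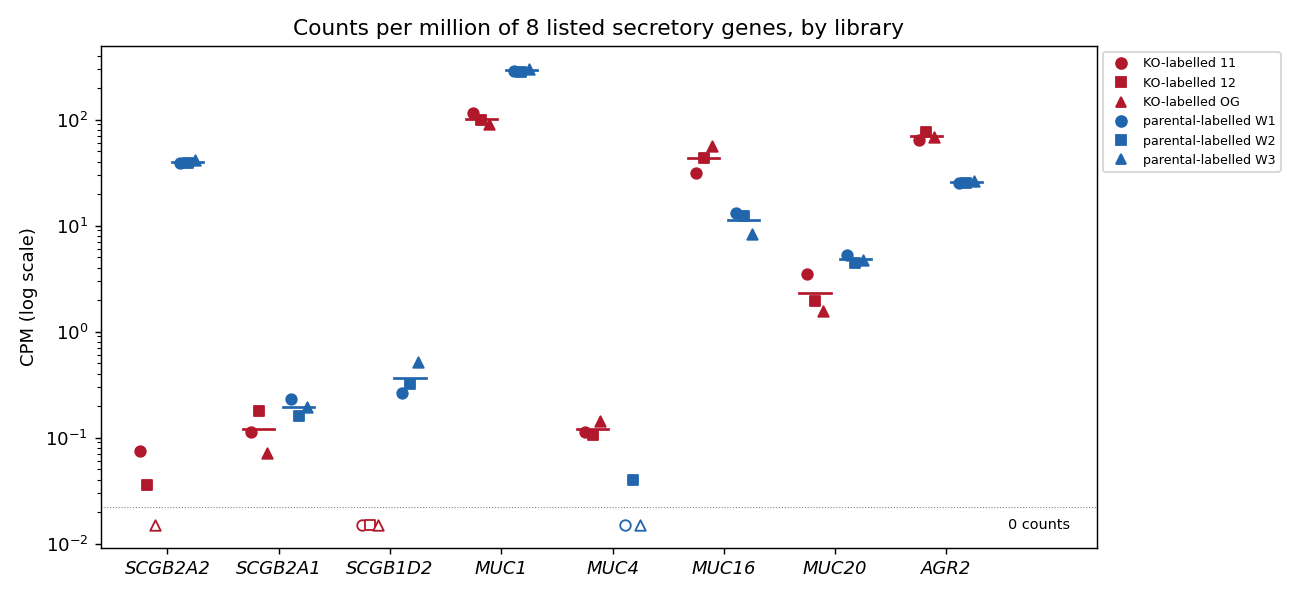
CPM on a log axis for the 8 listed genes with counts, with a point for each library, KO-labelled in red left of parental-labelled in blue; horizontal bars are group means, drawn only where all 3 libraries have counts, and open points under the dotted line are libraries with 0 counts. SCGB2A2 is at 0.0369 CPM on average in KO-labelled and 39.6 CPM in parental-labelled libraries, while MUC16 and AGR2 are higher in all 3 KO-labelled libraries.

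The membrane mucins differed in both directions. MUC1 had 3082, 2774 and 2564 counts in KO-labelled 11, 12 and OG, against 8695, 7137 and 9378 counts in parental-labelled W1, W2 and W3. All 3 KO-labelled libraries lay below every parental-labelled library. MUC1 averaged 101.8 ± 12.7 CPM in KO-labelled and 290.4 ± 9.52 CPM in parental-labelled libraries (n = 3 each); its log2 fold change was -1.51 (SE 0.10). By the authors' FPKM it was at 78.4, 66.6 and 63.1 in KO-labelled 11, 12 and OG, against 196, 183 and 205 in parental-labelled W1, W2 and W3. MUC1 therefore remained among the more abundant transcripts of the KO-labelled libraries, at place 1563 of 34977 by mean FPKM, against place 479 in the parental-labelled group.

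MUC16, the longest of the listed genes, went the other way. It had 825, 1237 and 1588 counts in KO-labelled 11, 12 and OG, against 397, 313 and 259 counts in parental-labelled W1, W2 and W3. The groups did not overlap, and KO-labelled OG was highest. In CPM it was at 31.1, 43.7 and 56.6 in KO-labelled 11, 12 and OG, against 13.1, 12.4 and 8.32 in parental-labelled W1, W2 and W3. The log2 fold change was 1.96 (SE 0.24), with means of 43.8 ± 12.8 CPM in KO-labelled and 11.3 ± 2.58 CPM in parental-labelled libraries (n = 3 each). Per length MUC16 remained a low transcript, at 1.32 ± 0.348 FPKM in KO-labelled and 0.330 ± 0.0705 FPKM in parental-labelled libraries. Within the parental-labelled group the 2 deposited tables order the libraries differently: W1 had the most MUC16 counts and the lowest FPKM (0.254, against 0.345 in W2 and 0.393 in W3).

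MUC20 was scarcer, and its values depended more on the table used. It had 92, 55 and 44 counts in KO-labelled 11, 12 and OG, against 159, 111 and 146 counts in parental-labelled W1, W2 and W3. The groups did not overlap, and KO-labelled 11 stood above 12 and OG in counts. By FPKM KO-labelled 11 was the lowest, at 0.378, against 0.551 in 12 and 0.413 in OG. MUC20 averaged 2.33 ± 1.0 CPM in KO-labelled and 4.78 ± 0.425 CPM in parental-labelled libraries (n = 3 each); its log2 fold change was -1.05 (SE 0.26). The ratio of the means, parental-labelled over KO-labelled, was 2.06 in CPM and 4.27 in FPKM. Of its 3800 stretches of 50 bases in the GENCODE 29 transcripts, 54.1% also occur in another gene, most often MUC20-OT1, so its reads can be split or dropped in counting; the other listed genes share none. Without KO-labelled 12 its log2 fold change was -0.94, and without parental-labelled W1 it was -0.98. In neither fit was it called (edgeR adjusted p under 0.05). Since MUC20 was listed with this comparison known, meeting that threshold in other fits is no test of a difference.

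MUC4, a partner of the receptor ERBB2, was close to absent. It had 3, 3 and 4 counts in KO-labelled 11, 12 and OG, against 0, 1 and 0 counts in parental-labelled W1, W2 and W3. The ratio of KO-labelled over parental-labelled counts was 10.5, with a counting interval of 1.49 to 454. MUC4 was at 0.0170 FPKM or less in every library of both groups.

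AGR2 was higher in the KO-labelled libraries. It had 1709, 2167 and 1898 counts in KO-labelled 11, 12 and OG, against 769, 633 and 815 counts in parental-labelled W1, W2 and W3. The lowest KO-labelled library, at 64.3 CPM, lay well above the highest parental-labelled library, at 26.2 CPM. AGR2 averaged 69.5 ± 6.31 CPM in KO-labelled and 25.55 ± 0.553 CPM in parental-labelled libraries (n = 3 each); its log2 fold change was 1.44 (SE 0.09). Its paralogue AGR3 had at most 0.000767 FPKM in any library, so of the pair only AGR2 was measurably present in this line.

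The promoters of MUC1 and AGR2 are shown because these 2 abundant genes differed in opposite directions. Both windows are the 250 bases before the start, on the minus strand of GRCh38.p14 (RefSeq), MUC1 (1 of 2 starts in the table) at chr1:155192916-155193165 and AGR2 at chr7:16805000-16805249, with capitals marking matches to the same 8 motifs.
MUC1: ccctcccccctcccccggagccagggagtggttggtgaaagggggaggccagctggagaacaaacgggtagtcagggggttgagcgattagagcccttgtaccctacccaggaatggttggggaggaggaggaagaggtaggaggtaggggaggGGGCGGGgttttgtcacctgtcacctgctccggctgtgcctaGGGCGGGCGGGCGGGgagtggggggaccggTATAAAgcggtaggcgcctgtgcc
AGR2: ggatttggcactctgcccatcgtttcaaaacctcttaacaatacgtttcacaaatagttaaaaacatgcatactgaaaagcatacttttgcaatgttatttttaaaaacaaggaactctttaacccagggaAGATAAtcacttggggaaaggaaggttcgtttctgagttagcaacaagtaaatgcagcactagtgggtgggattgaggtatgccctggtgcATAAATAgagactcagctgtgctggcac

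The MUC1 window holds TATAAA at 24 to 19 bases before the start (in 10.7% of windows) and 4 copies of the GC box GGGCGGG (at least 1 copy in 31.5% of windows), 3 of which overlap each other. AGR2 holds ATAAATA at 28 to 22 bases before the start, the same box as in SCGB2A2 and SCGB2A1, and the GATA core AGATAA at 119 to 114 bases before it (in 9.17% of windows). The 3 genes with ATAAATA thus include SCGB2A2, which was lower in the KO-labelled group, AGR2, which was higher, and SCGB2A1, whose groups overlapped.

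Of the 5 listed genes that could be fitted, 3 were lower and 2 higher in the KO-labelled group without overlap between the groups in CPM, where 54.4% of all genes tested had no overlap. Over all genes tested 40.8% were called by edgeR at an adjusted p under 0.05, 21.0% higher and 19.8% lower. The list was drawn up from this comparison, so that the listed genes would differ was largely fixed beforehand, and nothing is read from their count. The median log2 fold change of the 5 was -1.05, which is the value of MUC20, against 0.01 over all 17420 genes. For the same reason nothing is read from this median.

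The order of the genes by level changed between the groups. In the KO-labelled group AGR2 stood first with 85.6 ± 7.73 FPKM, followed by MUC1 with 69.4 ± 8.02 FPKM. In the parental-labelled group MUC1 stood first with 194 ± 11.2 FPKM, followed by SCGB2A2 with 92.5 ± 4.06 FPKM and AGR2 with 30.3 ± 0.384 FPKM. In each group the libraries of these leading neighbours did not overlap. The gap was narrow in the KO-labelled group, where the lowest AGR2 was 80.2 FPKM and the highest MUC1 78.4 FPKM, both in KO-labelled 11. Below them in the KO-labelled group came MUC16, then MUC20 at 0.447 ± 0.0914 FPKM and SCGB2A1 at 0.292 ± 0.127 FPKM, whose libraries overlapped. SCGB2A2 was next in the KO-labelled group and overlapped MUC4. In the parental-labelled group MUC20, at 1.91 ± 0.149 FPKM, was followed by SCGB1D2 at 0.882 ± 0.208 FPKM, and SCGB2A1 at 0.457 ± 0.0927 FPKM overlapped MUC16.

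**Figure D2:**
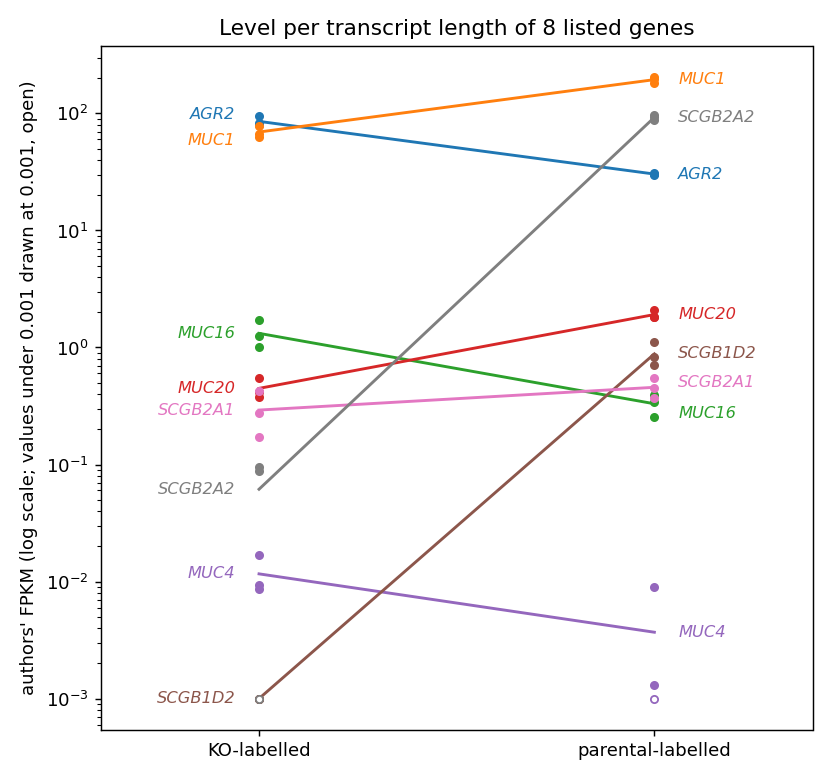
The authors' FPKM on a log axis for 8 listed genes, KO-labelled on the left and parental-labelled on the right; points are libraries, lines join the group means, and values under 0.001 are drawn open at 0.001. AGR2 stands above MUC1 on the left, at 85.6 against 69.4 FPKM, and MUC1 and SCGB2A2 stand above AGR2 on the right.

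The 4 measurable mucin and AGR genes spread wider in CPM among the KO-labelled libraries than among the parental-labelled libraries. The highest over the lowest CPM among the 3 KO-labelled libraries was 1.19 for AGR2, 1.27 for MUC1, 1.82 for MUC16 and 2.21 for MUC20. Among the 3 parental-labelled libraries it was 1.04 for AGR2, 1.06 for MUC1, 1.57 for MUC16 and 1.19 for MUC20. The median over all tested genes was 1.28 in the KO-labelled group and 1.12 in the parental-labelled group, and 2512 of 17336 genes spread wider than MUC16 among the KO-labelled libraries. KO-labelled OG had the highest MUC16 and the lowest MUC1 and MUC20 of the 3, and KO-labelled 12 had the highest AGR2. Each population gave 1 library, so these differences carry no error of their own.

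Few genes were, as SCGB2A2 was, present in the parental-labelled group and nearly absent from the KO-labelled group by fixed limits. The limits are on CPM and counts, so genes with as large a fold change were not counted. Of 10145 genes at 10 CPM or more in the parental-labelled group, 5 (0.0493%) had at most 10 counts over the 3 KO-labelled libraries, among them MAGED1, SCGB2A2, MAP7D2 and SLC12A7. MAGED1, a MAGE family adaptor protein, had 0 counts in all 3 KO-labelled libraries, against 1357, 1144 and 1471 counts in parental-labelled W1, W2 and W3. SCGB2A2 had the second highest parental-labelled level of the 5. SLC12A7, a potassium-chloride cotransporter, had 1, 0 and 1 counts in KO-labelled 11, 12 and OG, against 351, 312 and 461 in parental-labelled W1, W2 and W3. MAP7D2, a microtubule-associated protein, had 0, 4 and 5 counts in KO-labelled 11, 12 and OG, against 534, 433 and 523 in parental-labelled W1, W2 and W3. The limit of 10 counts over the 3 KO-labelled libraries required few counts in each of them, so nothing is read from that sharing. With the parental-labelled minimum at 5 CPM, 9 genes met the same limits.

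The wider secretory families were then counted. Of 9 further secretoglobins 4 have counts and 1 was tested, SCGB2B2, at 2.14 ± 0.722 CPM in KO-labelled and 1.46 ± 0.137 CPM in parental-labelled libraries. It did not pass the edgeR test with an adjusted p of 0.139 (unadjusted p = 0.0756), while limma on log2(FPKM + 1) gave an adjusted p of 0.0307 and a higher KO-labelled level. Its log2 fold change of 0.55 was 0.27 without KO-labelled 11 (edgeR adjusted p = 0.389) and 0.76 without KO-labelled OG (edgeR adjusted p = 0.0157). It was not called without any other library, nor by DESeq2 (adjusted p = 0.19). SCGB1B2P, a secretoglobin pseudogene, had 21, 9 and 16 counts in KO-labelled 11, 12 and OG, against 9, 4 and 6 in parental-labelled W1, W2 and W3, and reached the fit only without the count filter or with 1 library left out. Of these 5 fits it was called, as higher, in the 1 without KO-labelled 12 (log2 fold change 1.61, edgeR adjusted p = 0.0177), and not in the others, whose adjusted p-values lay between 0.0633 and 0.135. SCGB1A1, the airway secretoglobin, was at 0.0659 CPM or less in every library. Per length, SCGB2B2 was at 0.651 ± 0.153 FPKM in KO-labelled and 0.325 ± 0.0550 FPKM in parental-labelled libraries, against the 92.5 FPKM of SCGB2A2 in the parental-labelled libraries.

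Of 19 further mucins and mucin-like proteins, 6 were tested, 3 of them lower, 2 higher and 1, the sialomucin CD164, not called. The median log2 fold change was -0.44, and 40.8% of all tested genes were called. MUC15, a membrane mucin known from bovine milk fat globules, had 807, 952 and 601 counts in KO-labelled 11, 12 and OG, against 2824, 2429 and 2896 counts in parental-labelled W1, W2 and W3. Its log2 fold change was -1.73 (SE 0.15, edgeR adjusted p = 9.48e-05). MUCL1, the small breast mucin, had 445, 349 and 523 counts in KO-labelled 11, 12 and OG, against 1423, 1290 and 1665 counts in parental-labelled W1, W2 and W3. Its log2 fold change was -1.67 (SE 0.15, edgeR adjusted p = 9.78e-05). MUC15 and MUCL1 thus stood below every parental-labelled library in all 3 KO-labelled libraries. The oviductal glycoprotein OVGP1 fell slightly (log2 fold change -0.64, SE 0.13, edgeR adjusted p = 0.00587). The anti-adhesive sialomucin PODXL rose to 200.5 ± 26.8 CPM in KO-labelled libraries, against 133 ± 5.59 CPM in parental-labelled libraries (log2 fold change 0.59, edgeR adjusted p = 0.00266). The gel-forming airway mucin MUC5B also rose, with 104, 135 and 57 counts in KO-labelled 11, 12 and OG, against 27, 20 and 48 in parental-labelled W1, W2 and W3 (edgeR adjusted p = 0.00806).

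Among 22 other trefoil and disulfide isomerase genes, 18 were tested, 4 higher, 4 lower and 10 not called, a share near the 40.8% called among all tested genes, with a median log2 fold change of -0.14. ERP27, a non-catalytic isomerase family member, fell to 7.33 ± 2.34 CPM in KO-labelled libraries, against 35.9 ± 0.527 CPM in parental-labelled libraries (log2 fold change -2.29, SE 0.19, edgeR adjusted p = 7.17e-05). The main isomerase P4HB rose by 0.55 on the log2 scale (SE 0.06, edgeR adjusted p = 2.8e-04). ERP44, which retains client proteins in the early secretory pathway, had a log2 fold change of -0.43, and the glycoprotein isomerase PDIA3 one of -0.31 (edgeR adjusted p = 0.00186 and 0.00432). P4HB, ERP44 and PDIA3 thus had log2 fold changes smaller in size than the 1.44 of AGR2. TXNDC5, another isomerase, was not called on its 45 to 69 counts per library. By FPKM it was at 84.0, 88.9 and 104 in KO-labelled 11, 12 and OG. In parental-labelled W1, W2 and W3 it was at 122, 116 and 123 FPKM, above every KO-labelled library. The estrogen-responsive trefoil gene TFF1 had 1 count over all 6 libraries.

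Of 21 tested enzymes that build O-linked mucin sugars, 6 were higher, 7 lower and 8 not called, where 21.0% of all tested genes were called higher and 19.8% lower. Their median log2 fold change was -0.14. The count of 13 called fell to 7 when any of W1, W2 or W3 was left out. Of the transferases that start the chains, GALNT1 fell by 0.70 (SE 0.08) and GALNT3 by 0.92 (SE 0.11) on the log2 scale, and GALNT14 rose by 0.86 (SE 0.12). The sialyltransferase ST6GALNAC4 fell to 0.321 ± 0.208 CPM in KO-labelled libraries, against 2.16 ± 0.499 CPM in parental-labelled libraries, a log2 fold change of -2.73 (SE 0.38). Their edgeR adjusted p-values lay between 3.86e-04 and 0.00113.

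**Figure D3:**
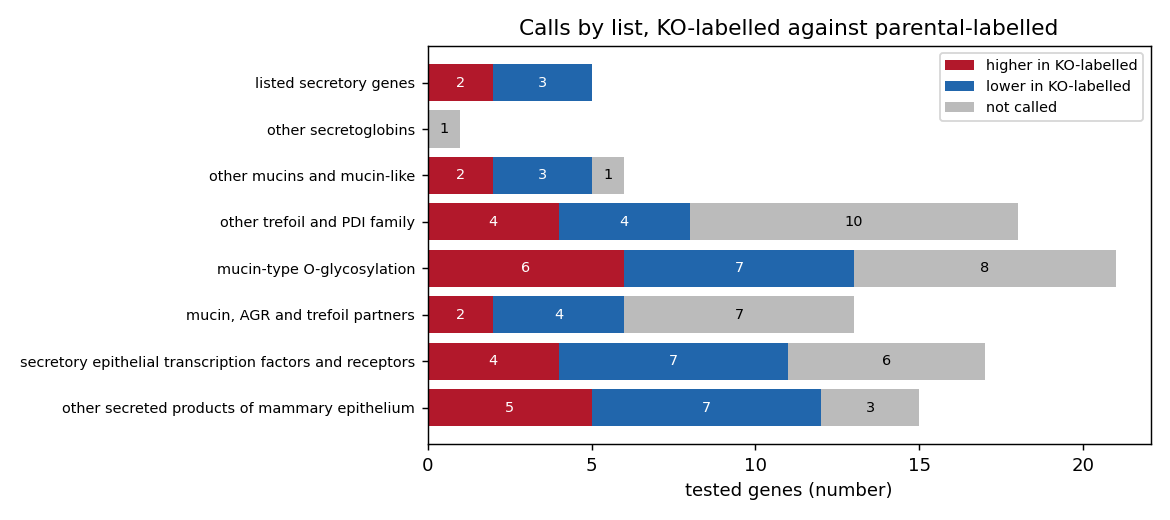
Number of tested genes called higher, called lower and not called in the KO-labelled against the parental-labelled group for each gene list. The mucin-type O-glycosylation list holds 6 higher, 7 lower and 8 not called genes.

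Of 13 tested partners of mucins and AGR proteins, 2 were higher, 4 lower and 7 not called, a share near the 40.8% called among all tested genes, with a median log2 fold change of 0.08. The sheddases that can release the MUC1 ectodomain rose: MMP14 to 30.5 ± 4.86 CPM in KO-labelled libraries, against 12.52 ± 1.08 CPM in parental-labelled libraries, and ADAM17 to 170.4 ± 2.0 CPM, against 121 ± 3.55 CPM in parental-labelled libraries. Galectin-3 (LGALS3), which binds MUC1 sugars, fell to 86.6 ± 8.13 CPM in KO-labelled libraries, against 172 ± 12.6 CPM in parental-labelled libraries. DAG1, dystroglycan, had a log2 fold change of -0.64 (SE 0.09). The edgeR adjusted p-values of these 4 lay between 1.25e-04 and 8.86e-04. MSLN, the cell-surface ligand of MUC16, was at 0.726 ± 0.0945 CPM in KO-labelled and 0.530 ± 0.0434 CPM in parental-labelled libraries, and was not called (edgeR adjusted p = 0.173). ERBB2, the partner of MUC4, was not called either (log2 fold change -0.12, SE 0.09).

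Of 17 tested transcription factors and hormone receptors of secretory epithelium, 7 fell, 4 rose and 6 were not called, where 40.8% of all tested genes were called. The median log2 fold change was -0.21. XBP1, which expands the secretory apparatus, fell to 206 ± 32.0 CPM in KO-labelled libraries, against 522 ± 2.05 CPM in parental-labelled libraries (log2 fold change -1.34, edgeR adjusted p = 6.35e-05). The secretory pathway factors CREB3L1 and CREB3L4 also fell, CREB3L1 with 3, 5 and 1 counts in KO-labelled 11, 12 and OG, against 45, 39 and 40 in parental-labelled W1, W2 and W3 (edgeR adjusted p = 1.6e-04). CREB3L4 had a log2 fold change of -1.36 (SE 0.19, edgeR adjusted p = 8.81e-04). The prolactin receptor PRLR rose by 1.38 on the log2 scale (SE 0.13, edgeR adjusted p = 1.39e-04). Of regulators known to act on secretory or luminal genes, SPDEF fell by 0.68 (SE 0.10) and FOXA1 by 0.52 (SE 0.13) on the log2 scale (edgeR adjusted p = 0.00147 and 0.0141). GATA3 was not called (log2 fold change -0.09, SE 0.10). The estrogen receptor ESR1 fell by 1.75 in the fit to counts (SE 0.25, edgeR adjusted p = 0.00102). By FPKM its groups overlapped, at 0.189 to 1.51 in KO-labelled and 1.13 to 1.33 in parental-labelled libraries. The epithelial ETS factors EHF and ELF5 rose by 1.09 (SE 0.16) and by 1.65 (SE 0.30), with edgeR adjusted p-values of 0.0012 and 0.0031. Whether any of these regulators acts on the listed genes was not tested.

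Of 15 other tested secreted or surface products of mammary epithelium, 5 were higher, 7 lower and 3 not called, where 40.8% of all tested genes were called. The median log2 fold change was -0.30. Clusterin (CLU) fell to 77.9 ± 12.9 CPM in KO-labelled libraries, against 373 ± 16.02 CPM in parental-labelled libraries (log2 fold change -2.26, edgeR adjusted p = 8.98e-06). The cell-surface glycoprotein CEACAM6 fell to 10.2 ± 0.6998 CPM in KO-labelled libraries, against 34.2 ± 0.755 CPM in parental-labelled libraries (log2 fold change -1.74, edgeR adjusted p = 8.61e-06). WFDC2, the secreted whey-acidic protein HE4, rose, with 39, 60 and 60 counts in KO-labelled 11, 12 and OG, against 4, 1 and 7 in parental-labelled W1, W2 and W3. Its log2 fold change was 3.75 (SE 0.39, edgeR adjusted p = 2.22e-04), and 4.34 without W3. The serpin SERPINA3 had 2 counts in the KO-labelled group, against 44 in the parental-labelled group, a ratio of parental-labelled over KO-labelled counts of 21.0 with a counting interval of 5.49 to 179. AZGP1, another abundant secreted product, was not called, at 859 ± 235 CPM in KO-labelled and 802 ± 33.8 CPM in parental-labelled libraries.

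**Figure D4:**
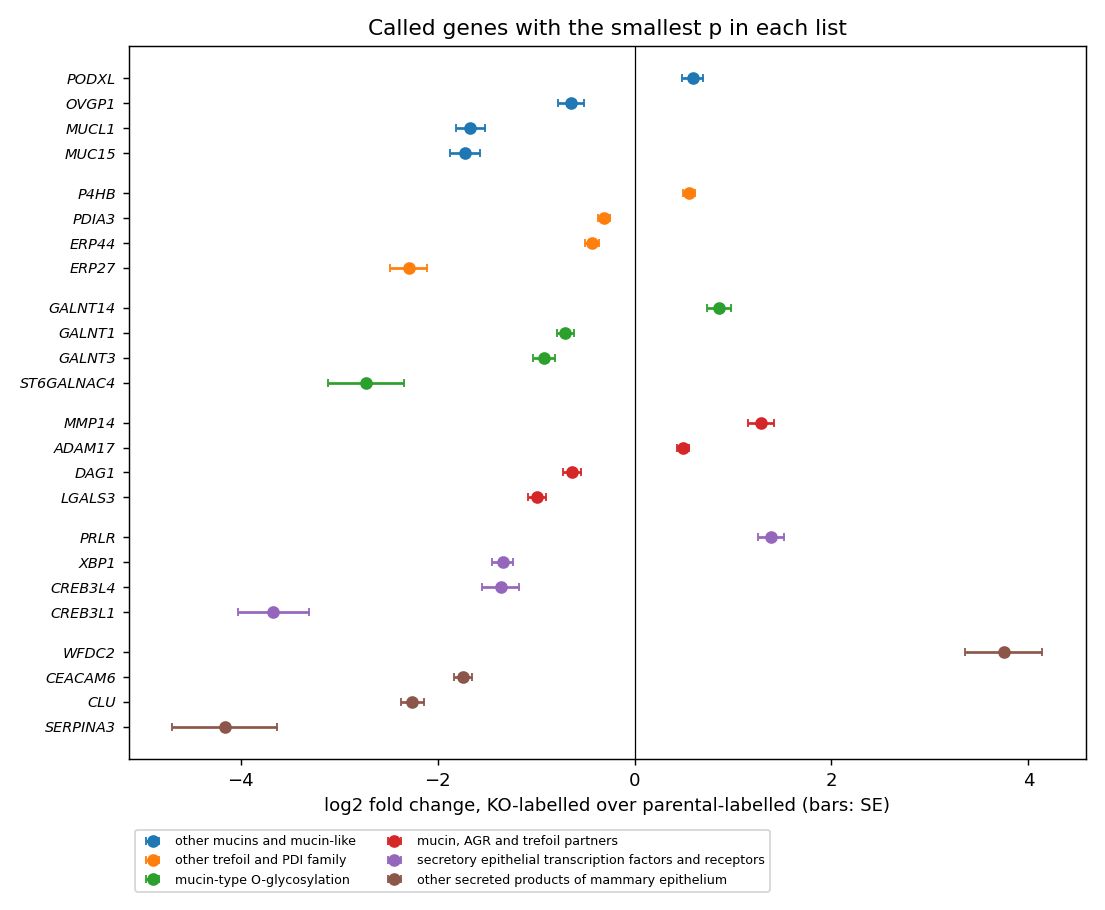
Log2 fold change, KO-labelled over parental-labelled, of up to 4 called genes with the smallest p in each list; bars are SE, and the SERPINA3 value rests on 2 KO-labelled counts. MUC15 at -1.73 and MUCL1 at -1.67 lie left of 0, and PRLR at 1.38 and WFDC2 at 3.75 lie right of it.

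Genes beside the listed ones were read in the order of GENCODE 29 on GRCh38, 5 tested genes on each side of each locus. At the secretoglobin cluster on chromosome 11, 5 of the 10 neighbours were higher, 1 lower and 4 not called. The asparaginase-like gene ASRGL1, the nearest tested gene on one side of SCGB2A2, rose by 1.24 on the log2 scale (SE 0.15), and INCENP, the nearest on the other side, rose by 0.87 (SE 0.18), with edgeR adjusted p-values of 4.15e-04 and 0.00685. The pseudogene RCC2P6 rose by 0.68 (SE 0.12, edgeR adjusted p = 0.00252). The near absence of SCGB2A2 from the KO-labelled libraries was therefore not shared by the tested genes around it. The other secretoglobins of the cluster were too scarce to be tested. Of these, SCGB1D2 had 0 counts in the KO-labelled group, against 32 in the parental-labelled group, and SCGB2A1 overlapped between the groups. Whether the locus was altered in the KO-labelled libraries was not tested.

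At MUC1 on chromosome 1, 6 of 10 neighbours were lower and 4 not called, and MTX1, a mitochondrial import gene, fell by 0.43 on the log2 scale (edgeR adjusted p = 0.0106). At MUC16 on chromosome 19, 6 were higher and 4 not called, and the zinc finger gene ZNF558 rose by 0.48 (edgeR adjusted p = 0.00445). At AGR2 and AGR3 on chromosome 7, 6 were higher, 1 lower and 3 not called, and AHR, the aryl hydrocarbon receptor, rose by 1.22 (SE 0.10, edgeR adjusted p = 6.33e-05). At MUC4 and MUC20 on chromosome 3, 1 was higher, 3 lower and 6 not called. The called neighbours lay on the same side of 0 as the listed gene in 6 of 6 at MUC1, 6 of 6 at MUC16 and 6 of 7 at AGR2. At MUC20 it was 3 of 4, and at the secretoglobin cluster 1 of 6. Over all tested genes, 21.0% were called higher and 19.8% lower, and a link to place on the chromosome was not tested. Over all 50 neighbours, 18 were higher, 11 lower and 21 not called, against 40.8% of all tested genes called in either direction. The 29 called became 19 without KO-labelled 12, 16 without W1 or W2, and 17 without W3. The calls of TRIM46 (-0.57), PPP1R2 (-0.25), ZNF317 (0.29), BZW2 (0.28) and TSPAN13 (0.50), all close neighbours, were lost when single libraries were left out. Across those fits the highest edgeR adjusted p was 0.151 for TRIM46, 0.166 for PPP1R2, 0.0644 for ZNF317, 0.116 for BZW2 and 0.0706 for TSPAN13. Leaving out any library but W1 ended the call of TRIM46, and any but OG that of PPP1R2. W1 and W3 did so for ZNF317, KO-labelled 12 and each of W1, W2 and W3 for BZW2, and KO-labelled 12, W1 and W3 for TSPAN13.

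**Figure D5:**
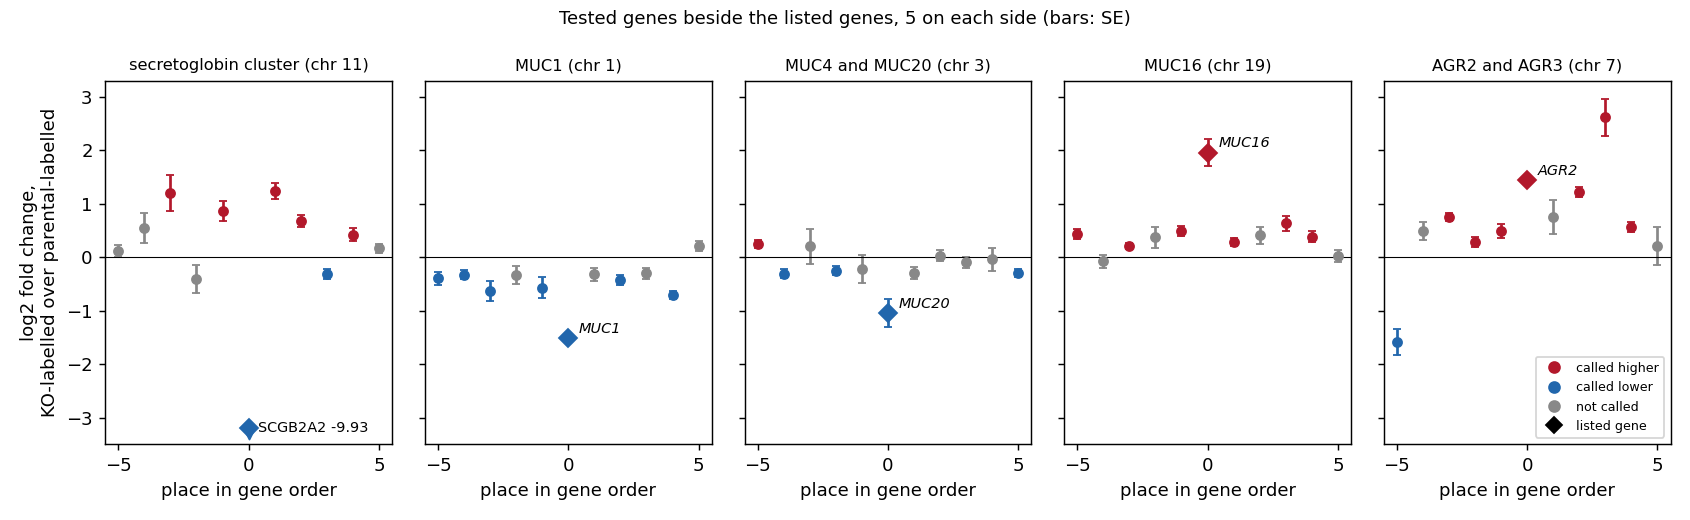
Log2 fold change, KO-labelled over parental-labelled, of the listed genes (diamonds) and of 5 tested genes on each side of each locus in gene order (circles); bars are SE, and SCGB2A2 is drawn at the lower edge, outside its true place at -9.93. The neighbours of SCGB2A2 lie between -0.41 and 1.24, and those of MUC1 between -0.70 and 0.21.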

How the data were processed

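Polyadenylated RNA of 6 cultures was sequenced from libraries made with a directional kit, per the labels' protocols. The authors deposited raw counts per gene symbol and FPKM values, which are scaled to library size and to the length of the transcript. Cufflinks 2.0.2, SAMtools 0.1.19, STAR 2.4.0f1 and the build hg19 appear in the submitters' processing notes without a role. No source used here gives the counting program, its strand setting or the annotation, so overlapping or antisense genes may not be separated.

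From the counts, edgeR 4.0.16 in R 4.3.3 was run on 17420 genes kept by filterByExpr (minimum count 10, minimum total 15), with TMM scaling and the quasi-likelihood test over all 6 libraries without covariates. Adjusted p-values are Benjamini-Hochberg over these genes, and called means under 0.05. The SE is the log2 fold change divided by the square root of F. CPM use TMM library sizes. Tested genes held at least 99.9% of the counts of each library. Groups with 0 counts were set to a group-wide floor of 3 counts, and count ratios carry exact 95% binomial intervals. The p-values measure the spread between wells of 1 plate and 3 populations, which may be partly technical.

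The members and lists were chosen with earlier results of these data known. Named are all listed genes, up to 4 called genes of each list with the smallest p, the genes off as SCGB2A2 is (1 of them is not reported here), and called neighbours within 2 tested genes; others (SCGB2B2, SCGB1B2P, SCGB1A1, MUC5B, CD164, TFF1, TXNDC5, MSLN, ERBB2, SPDEF, FOXA1, GATA3, EHF, ELF5 and AZGP1) were named after their values were seen. Gene order came from GENCODE 29 on GRCh38, where 85.6% of tested genes matched, and promoters from RefSeq on GRCh38.p14, where 8 of 10 listed genes matched. The fit was also run on simulated data with the spread of the parental-labelled wells and few changed genes. That run does not cover the wider spread of the KO-labelled populations or the many genes called here. Alternatives were other scalings, filters, DESeq2 1.42.0, limma 3.58.1 on log2(FPKM + 1) and log2(FPKM + 0.1), a test against a 1.5-fold change, and leaving out each library.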

Additional observations from a re-analysis of the deposited data

How the results depend on the processing

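The 5 fitted genes of the list kept their direction under every alternative in which they were fitted. Log2 fold changes ranged from -10.81 to -6.46 for SCGB2A2, -1.62 to -1.44 for MUC1 and 0.79 to 2.15 for MUC16. They ranged from -1.89 to -0.84 for MUC20 and from 1.37 to 1.49 for AGR2. MUC20 missed the threshold in 3 of 14, those without KO-labelled 12, without W1 and against a 1.5-fold change. Because these genes were listed with this comparison known, meeting the threshold elsewhere is no test of a difference. Tested against a 1.5-fold change, 1923 genes were called in place of 7105, with 3 mucins, 1 isomerase, 3 glycosylation genes, 2 partners, 7 regulators and 4 neighbours. Among genes with at least 10 CPM in 3 libraries, a stricter filter, 3 mucins, 7 glycosylation genes and 6 secreted products were called. By limma on either FPKM scale 1 further secretoglobin was called in place of 0. Leaving out 1 library gave 4879 to 9367 genes in all, 0 to 1 further secretoglobins, 7 to 15 glycosylation genes and 16 to 35 neighbours. Genes off as SCGB2A2 is numbered 9 with a minimum of 5 CPM. The neighbour SDHAP1, at 0.03 and not called, was at -0.0049 without W2, -0.0089 without W3 and 0.0942 without W1; the cause of these shifts was not tested. Of 758 comparisons of single genes with their alternatives, 697 kept direction and call. No paired analysis was possible because the labels give the groups no shared replicate numbers. Depth limits SCGB2A1, SCGB1D2 and MUC4, which had 27, 32 and 11 counts over all 6 libraries.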

Other observations

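The 2 deposited tables can be set against each other by the length, in kilobases, that would turn a gene's counts into its FPKM at the library's total count. For MUC1 this implied length was 1.46 to 1.51 kb in KO-labelled and 1.45 to 1.53 kb in parental-labelled libraries, and for AGR2 it was 0.821 to 0.833 kb in KO-labelled and 0.816 to 0.837 kb in parental-labelled libraries, so both tables carry the same differences for these genes. For SCGB2A2 it was 0.412 to 0.432 kb in the parental-labelled libraries. MUC16 ranged from 31.2 to 35.6 kb in KO-labelled and from 20.8 to 51.0 kb in parental-labelled libraries. MUC20 stood at 9.36, 3.57 and 3.84 kb in KO-labelled 11, 12 and OG, against 2.49, 2.36 and 2.53 kb in parental-labelled W1, W2 and W3. For these 2 mucins the counts and the FPKM thus describe partly different quantities, and which transcripts each table counted is not given in the sources used here. SERPINA3 had far shorter values, with 16, 12 and 16 counts but 33.2, 32.4 and 33.8 FPKM in parental-labelled W1, W2 and W3, an implied length of 0.0144 to 0.0157 kb. In the KO-labelled libraries SERPINA3 was at 0.188 to 0.569 FPKM, so both tables place it lower under the KO label. The isomerase TXNDC5 was similarly short, at 0.0181 to 0.0238 kb in KO-labelled and 0.0145 to 0.0178 kb in parental-labelled libraries. Only these genes and a few further mucins were compared in this way.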
